A study of Mus musculus with 6 samples.

Results

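Transcripts of 10 genes for actin monomer binding and turnover were compared between soleus muscles that had exchanged their sarcomeric actin and wild-type soleus. The genes are the cofilins Cfl1 and Cfl2, destrin (Dstn), the profilins Pfn1 and Pfn2, the cyclase-associated proteins Cap1 and Cap2, the thymosins Tmsb4x and Tmsb10, and gelsolin (Gsn). They were taken by name from the 34492 rows of a mouse whole-genome Illumina beadchip, and each of the 10 matched 1 row (CFL1, CFL2, DSTN, PFN1, PFN2, CAP1, CAP2, TMSB4X, TMSB10 and GSN as the array spells them). Their choice used no measured value of these rows, although earlier results of the same arrays were known.

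Both groups were male mice 11 months of age with the strain designation CBB6F1xFVB/n. In 1 genotype, labelled Coco/KO, skeletal muscle alpha-actin was replaced by cardiac actin, per the series title, and the other genotype was Wildtype. There were 3 RNA samples per genotype, and RNA from the soleus muscles of 2 mice was pooled in each, so the p-values measure the spread between pools. The promoter behind the cardiac actin and the line's origin are not given in the sources used here.

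Actin exists as monomers and as filaments, and its filaments grow mainly at one end and shrink at the other. Cofilins and destrin sever filaments and speed the loss of monomers, cyclase-associated proteins recycle the monomers, profilins deliver them to growing ends, thymosins hold them in reserve, and gelsolin severs and caps filaments in response to calcium. Cfl2 is the cofilin of mature skeletal muscle, where it takes part in setting thin filament length. Cfl1, Pfn1 and the thymosins are the forms of most non-muscle cells. The size of the monomer pool also controls transcription, since free actin holds the factor MRTF away from SRF, whose binding site is called the CArG box.

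The upstream sequences of the cofilin and profilin pairs are shown because changes within each pair are compared below, beside that of Acta1, the actin gene removed in these mice. Each run covers the 250 bases before an annotated transcript start in RefSeq (assembly GRCm38.p6), 5′ to 3′ on the gene's strand. The Pfn1 window lies before a start inside the annotated span of that gene (70651844 to 70656799), and the other windows shown lie just outside their genes. Capitals mark GGGCGG on either strand in the cofilins and profilins, where overlapping matches run together, and the exact CArG pattern given below in Acta1.
Cfl1, chr19:5490205-5490454, plus strand: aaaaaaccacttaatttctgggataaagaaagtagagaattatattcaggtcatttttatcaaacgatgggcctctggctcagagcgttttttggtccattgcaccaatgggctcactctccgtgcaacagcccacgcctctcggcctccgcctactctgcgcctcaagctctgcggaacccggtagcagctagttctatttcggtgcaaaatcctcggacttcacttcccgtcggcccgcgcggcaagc
Cfl2, chr12:54862878-54863127, minus strand: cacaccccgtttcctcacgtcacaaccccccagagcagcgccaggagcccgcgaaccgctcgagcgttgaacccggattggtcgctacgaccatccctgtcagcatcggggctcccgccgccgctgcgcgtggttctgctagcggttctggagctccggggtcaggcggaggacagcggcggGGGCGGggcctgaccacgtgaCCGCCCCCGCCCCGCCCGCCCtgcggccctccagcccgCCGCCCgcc
Pfn1, chr11:70654651-70654900, minus strand: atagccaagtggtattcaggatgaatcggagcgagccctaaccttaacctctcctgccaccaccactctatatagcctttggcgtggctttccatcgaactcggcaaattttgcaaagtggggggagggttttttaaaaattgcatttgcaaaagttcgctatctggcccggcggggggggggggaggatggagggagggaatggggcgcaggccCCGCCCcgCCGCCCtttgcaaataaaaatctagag
Pfn2, chr3:57847758-57848007, minus strand: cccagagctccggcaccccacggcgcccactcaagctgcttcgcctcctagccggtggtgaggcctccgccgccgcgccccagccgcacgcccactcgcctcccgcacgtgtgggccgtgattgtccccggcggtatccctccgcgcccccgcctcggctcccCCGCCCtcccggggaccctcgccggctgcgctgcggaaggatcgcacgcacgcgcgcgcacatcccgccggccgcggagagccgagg
Acta1, chr8:123894776-123895025, minus strand: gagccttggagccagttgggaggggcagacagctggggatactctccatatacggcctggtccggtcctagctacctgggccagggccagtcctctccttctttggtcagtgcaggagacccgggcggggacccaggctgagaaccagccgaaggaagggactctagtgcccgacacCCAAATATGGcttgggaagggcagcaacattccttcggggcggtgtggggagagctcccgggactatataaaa

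The CArG box was searched only as the exact pattern CC, then 6 bases that are each A or T, then GG. Near matches to it were not counted. All 10 genes had at least 1 such window, 14 in all, and 0 of the 14 held that exact pattern on either strand. Of all 32851 RefSeq windows, 1.47% held it, and Acta1 and Actc1 held 1 exact match each. The window of Cfl2 held GGGCGG at 6 positions, that of Pfn1 at 2 and that of Pfn2 at 1, while that of Cfl1 held none; 32.7% of all windows hold it at least once. Pfn2 and Cfl2 had the windows with the most CpG dinucleotides among the 10 genes, 38 and 32, against 16 for Cfl1 and 12 for Pfn1 and a median of 6 over all windows. These are descriptions of the letters in these windows and not of binding.

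The arrays had mean intensities between 330.2 and 470.2, and between 33.6% and 37.9% of rows were detected. Wildtype array 1 (332.0) and Coco/KO array 2 (330.2) were the dimmest. Coco/KO array 1 stood apart from the others, with the lowest mean correlation to the rest (0.970). Acta1 and Actc1 checked the labels. Acta1 intensity was 43171, 49462 and 41190 on the wildtype arrays and 2357, 1471 and 1761 on the Coco/KO arrays, and Actc1 intensity was 1012, 1485 and 596.8 against 7679, 3734 and 5964. All 12 skeletal muscle fibre markers were detected, among them Ckm and Mb, and their summed intensity lay between 232943 and 297996 in wildtype and between 232247 and 280430 in Coco/KO muscle.

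None of the 10 genes passed the threshold (limma, adjusted p under 0.05), where 18 of 12611 tested rows (0.143%) did, and none had an unadjusted p under 0.05, where 8.19% of tested rows did. A row was tested if its detection p was under 0.05 on at least 3 of the 6 arrays. 7 of the 10 genes met this, and Cap2, Tmsb4x and Tmsb10 did not. The 7 adjusted p-values ran from 0.744 (Gsn) to 0.994 (Cfl1). Each of the 7 had overlapping arrays between the genotypes, while 12.7% of tested rows had none. 4 were higher and 3 lower in Coco/KO muscle, with a median log2 change of 0.025 against -0.00029 over all tested rows. For the 6 genes detected on all arrays, every 95% interval of the fold change (Coco/KO over wildtype) included 1 and lay between 0.662 and 1.59. Differences inside those intervals could not be resolved with 3 arrays per group.

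**Figure D1:**
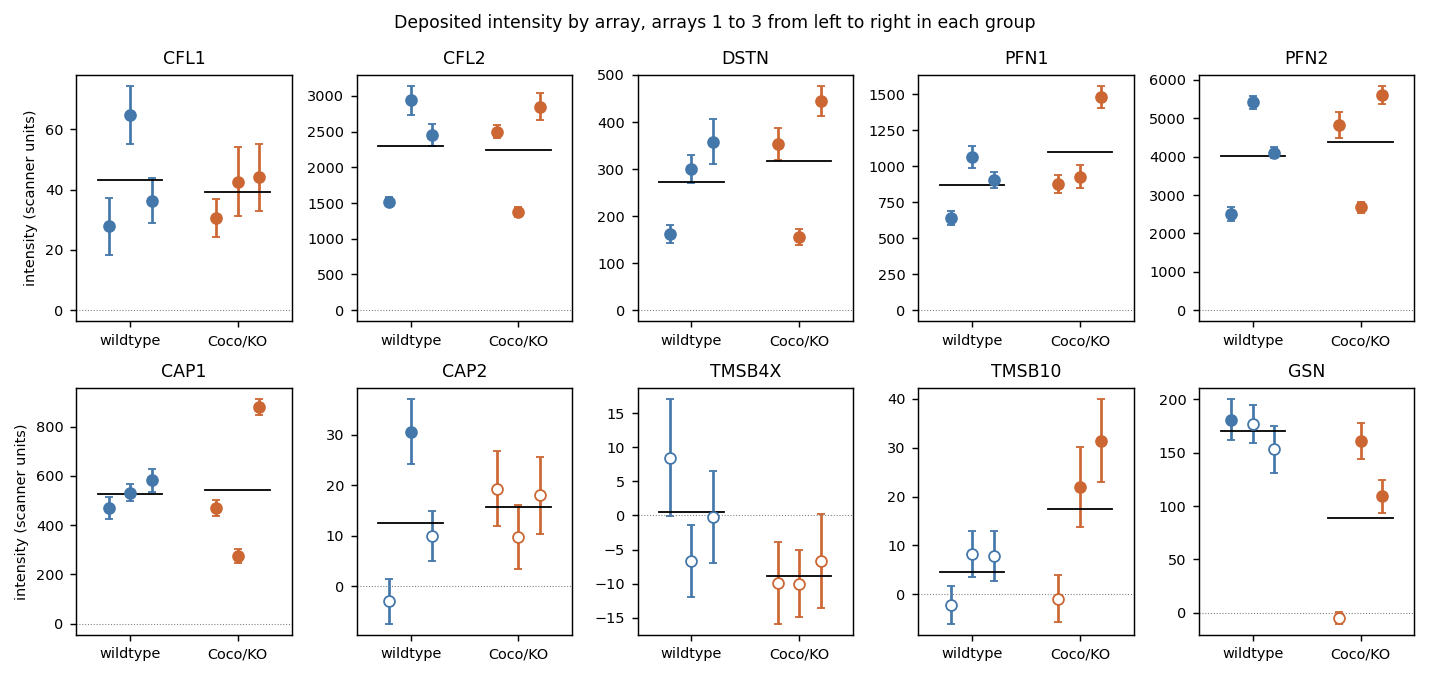
Deposited intensity (vertical axes, scanner units, background-subtracted) of the 10 genes on each array, wildtype in blue and Coco/KO in orange. Points are arrays, error bars are the standard error over the beads of that array, filled points were detected (detection p under 0.05), and black lines are group means. The genotypes overlap in every panel with tested values, and Gsn is at -4.6 on Coco/KO array 1.

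Cofilins and destrin, which disassemble filaments, kept overlapping levels in both genotypes. Cfl2 intensity was 1520, 2938 and 2453 on the wildtype arrays and 2496, 1375 and 2849 on the Coco/KO arrays. The lowest value of each group fell on its dimmest array. It stayed the lowest of its group after normalization (log2 10.95 in wildtype and 10.82 in Coco/KO muscle). After normalization, on the log2 scale, Cfl2 was 11.17 ± 0.20 (SD, n = 3) in wildtype and 11.09 ± 0.24 in Coco/KO muscle, a change of -0.08 (SE 0.18, 95% interval -0.49 to 0.32; limma, adjusted p = 0.967). Within an array the beads of Cfl2 gave a standard error of 3.53% to 6.87% of the value.

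Cfl1, the non-muscle cofilin, was dim but detected on all 6 arrays. Its intensity was 27.9, 64.9 and 36.4 in wildtype and 30.7, 42.7 and 44.1 in Coco/KO muscle. The highest and the lowest value of all 6 arrays were both wildtype. The log2 change was 0.03 (SE 0.16, 95% interval -0.35 to 0.40; limma, adjusted p = 0.994), with no stable sign across normalizations, and the 58.7 units added before the log2 step understate changes of so dim a row. Bead error alone was 14.8% to 33.7% of the Cfl1 value.

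Dstn, destrin or actin depolymerizing factor, had intensities of 161.6, 299.3 and 358.4 in wildtype and 353.6, 154.7 and 445.1 in Coco/KO muscle. Its lowest values again fell on wildtype array 1 and Coco/KO array 2, as did those of Cfl2. Both stayed the lowest of their group after normalization (log2 7.99 and 8.08). The log2 change was 0.15 (SE 0.23, 95% interval -0.38 to 0.67; limma, adjusted p = 0.948). Without wildtype array 1 it was -0.020.

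Profilins were both bright. Pfn2 intensity was 2512, 5415 and 4098 in wildtype and 4822, 2678 and 5606 in Coco/KO muscle. Its lowest value of each genotype again lay on the dimmest array, also after normalization (log2 11.67 in wildtype and 11.74 in Coco/KO muscle). The normalized log2 level of Pfn2 was 11.92 ± 0.25 (SD, n = 3) in wildtype and 12.04 ± 0.26 in Coco/KO muscle, a change of 0.11 (SE 0.19, 95% interval -0.32 to 0.55; limma, adjusted p = 0.951). Without wildtype array 1 that change was -0.012.

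Pfn1, the profilin of most non-muscle cells, had the highest change among the 6 genes detected throughout. Its intensity was 641.1, 1062 and 906.3 in wildtype and 878.9, 928.4 and 1484 in Coco/KO muscle. On the normalized log2 scale the arrays were at 9.75, 9.90 and 9.92 in wildtype and at 9.79, 10.30 and 10.25 in Coco/KO muscle. Coco/KO arrays 2 and 3 lay above all wildtype arrays and Coco/KO array 1 lay among them. The log2 change was 0.25 (SE 0.17, 95% interval -0.14 to 0.65), a 1.19-fold higher signal that did not pass (limma, adjusted p = 0.780; exact two-sided permutation test, p = 0.3, where 0.1 is the smallest that 3 arrays against 3 allow). It was positive in all 17 alternative settings, from 0.16 to 0.42, with the highest value without Coco/KO array 1 (limma, adjusted p = 0.458).

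Cap1, the cyclase-associated protein found in most cells, had intensities of 469.2, 532.7 and 582.0 in wildtype. The Coco/KO arrays read 471.3, 274.6 and 879.6, and so lay on both sides of the wildtype range. On the normalized log2 scale Cap1 was 9.19 ± 0.20 (SD, n = 3) in wildtype and 9.09 ± 0.41 in Coco/KO muscle. The log2 change of Cap1 was -0.10 (SE 0.22, 95% interval -0.59 to 0.40; limma, adjusted p = 0.970), and became 0.079 without Coco/KO array 2 and -0.32 without Coco/KO array 3. Whether the spread itself differs between genotypes was not tested.

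Cap2, the form enriched in striated muscle, was detected on 1 of 6 arrays. Its intensity was -3.0, 30.6 and 9.9 in wildtype and 19.3, 9.7 and 18 in Coco/KO muscle, and only wildtype array 2 lay above background. No fold change is given for it. A row near background does not show that the transcript is absent. The table has 34492 rows where the authors' processed table has 46632 probes, so a row may hold several probes, and the sources used here do not say how many.

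Tmsb4x, thymosin beta 4, the main monomer-holding peptide of many cells, was detected on no array. Its intensities were 8.5, -6.7 and -0.3 in wildtype and -9.9, -10.0 and -6.7 in Coco/KO muscle. As for Cap2, a row at background does not show that the transcript is absent. Which part of the transcript the Tmsb4x row measures could not be checked. The related Tmsb10 was detected on 0 of 3 wildtype arrays and on 2 of 3 Coco/KO arrays, with intensities of -2.1, 8.2 and 7.8 against -0.9, 22 and 31.4. Coco/KO arrays 2 and 3 lay above the rest and Coco/KO array 1 lay within the wildtype range. Tmsb10 was not tested, because 2 detected arrays did not meet the filter, and no fold change is given for it.

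Gsn, gelsolin, which muscle fibres, fibroblasts and smooth muscle make, had the largest change of the 7 tested genes, and 1 array carried most of it. Its intensity was 181.0, 177.1 and 153.4 in wildtype and -4.6, 161.2 and 109.4 in Coco/KO muscle. In intensity Coco/KO array 1 was at background, Coco/KO array 2 lay within the wildtype range and Coco/KO array 3 lay below it. On the normalized log2 scale Coco/KO array 2 (8.124) lay just above the highest wildtype array (8.117). Coco/KO array 3 (7.18) stayed below the lowest wildtype array (7.69). The log2 change was -0.82 (SE 0.49, 95% interval -1.94 to 0.31; limma, adjusted p = 0.744; exact two-sided permutation test, p = 0.4). Without Coco/KO array 1 it was -0.18 (limma, adjusted p = 0.923), and without Coco/KO array 2 it was -1.43 (limma, adjusted p = 0.492). With all arrays and detection p-values used to model background, the log2 change of Gsn shrank to -0.12.

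The Gsn row passed the filter with 3 arrays, wildtype array 1 and Coco/KO arrays 2 and 3. It was not called detected on wildtype arrays 2 and 3 although its intensity there was over 100, which was the case for 6.73% to 9.98% of rows with intensities over 100 per array. Whether several probes averaged in 1 row give such scores was not tested. Intensities at or below 0 on 1 array with more than 100 on each of the other 5 occurred in 6 of the 34492 rows, all on Coco/KO array 1. Gsn, as the gene of lowest p among the 10, was set against all tested rows with a symbol. The rows most like it over the 6 arrays were Asph (Pearson r = 0.994), Prkag1 (0.985) and Prrx1 (0.983), and 211 tested rows had r over 0.9. These points share the low value of Coco/KO array 1.

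**Figure D2:**
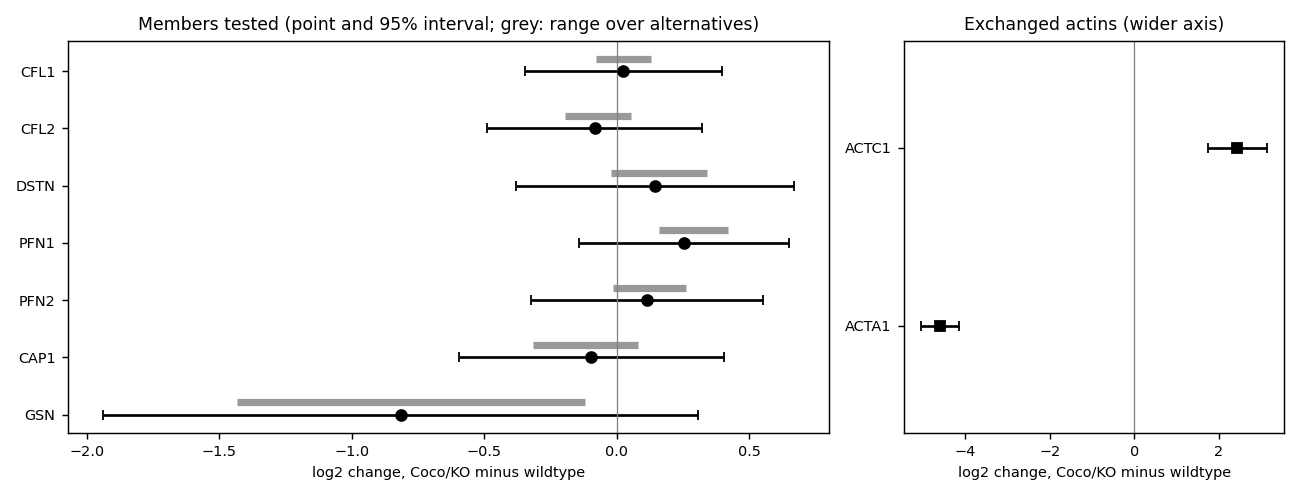
Log2 change, Coco/KO minus wildtype (horizontal axes), of the 7 tested genes on the left and of the exchanged actins on the right, on a wider axis. Points are limma estimates with 95% intervals from 3 arrays per genotype, and grey bars give the range over the alternative settings. All 7 intervals on the left include 0, and those of Acta1 (-5.04 to -4.14) and Actc1 (1.74 to 3.15) do not.

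Whether related genes changed unequally was asked within each array, as the log2 difference between the rows of a pair. A log2 shift shared by both rows cancels in it. Array brightness need not cancel fully, since the 58.7 units added before the log2 step weigh more on dim rows such as Cfl1. Such a difference also holds the probes' own brightness, so only its change between genotypes was compared. Cfl1 minus Cfl2 was -4.55 ± 0.15 (SD, n = 3) in wildtype and -4.45 ± 0.41 in Coco/KO muscle, which differ by 0.11 (SE 0.25). That difference had p = 0.9 by an exact two-sided permutation test, adjusted p = 1 over the 3 pairs with values. Pfn1 minus Pfn2 was -2.07 ± 0.19 in wildtype and -1.93 ± 0.49 in Coco/KO muscle, which differ by 0.14 (SE 0.30; exact permutation p = 0.8, adjusted p = 1). Cfl1 minus Dstn differed by -0.12 (SE 0.37; exact permutation p = 1, adjusted p = 1). The pairs of Cap1 with Cap2 and of Tmsb4x with Tmsb10 gave no value, since at least 1 row of each was not above background. All 3 pair differences had a larger SD in Coco/KO than in wildtype muscle. In each pair Coco/KO array 2, the dimmest array, had the highest value. It was -3.97 for Cfl1 minus Cfl2, -1.24 for Cfl1 minus Dstn and -1.44 for Pfn1 minus Pfn2. The pairs with Cfl2 and with Dstn also share Cfl1, and whether the spread differs between genotypes was not tested.

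Genes that act with these proteins were taken from 5 lists with 73 rows on the array, of which 47 were tested. None passed over all rows (limma), and 5 (10.6%) had an unadjusted p under 0.05, against 8.19% of all tested rows, all 5 higher in Coco/KO muscle. 27 were higher and 20 lower, and 6 of the 47 (12.8%) had no overlap between genotypes, close to the 12.7% of all tested rows.

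Among 13 tested rows of cofilin kinases, phosphatases and cofactors 8 were higher, with a median log2 change of 0.10. Tesk1, a kinase that inactivates cofilin by phosphorylation, had intensities of 345.6, 459.0 and 467.6 in wildtype and 1026, 414.3 and 895.5 in Coco/KO muscle. On the normalized log2 scale its 3 Coco/KO arrays (10.00, 9.27 and 9.56) lay above the 3 wildtype arrays (8.90, 8.78 and 9.03). The log2 change of Tesk1 was 0.71 (SE 0.20; limma, adjusted p = 0.357), the lowest adjusted p of the 47. Coro1c, a coronin that acts at branched filaments, had a log2 change of 0.32 (limma, adjusted p = 0.690) and Gmfg, a debranching factor of blood cells, one of 0.46 (limma, adjusted p = 0.703).

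In the list of other monomer-binding and gelsolin-family proteins 4 of 7 tested rows were higher, with a median of 0.06. Capg, a filament-capping relative of gelsolin abundant in macrophages, had intensities of 407.0, 353.6 and 372.5 in wildtype and 452.0, 574.9 and 1011 in Coco/KO muscle. Its highest value was on Coco/KO array 3, and its log2 change was 0.67 (SE 0.25; limma, adjusted p = 0.505). Svil, supervillin, had a log2 change of -0.23 and Flii, flightless, one of 0.25 (limma, adjusted p = 0.854 and 0.884).

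Of 18 tested nucleator and elongator rows 11 were higher, with a median of 0.04. Arpc1b, an Arp2/3 subunit, had intensities of 234.6, 269.5 and 247.2 in wildtype and 402.7, 252.4 and 479.9 in Coco/KO muscle, with normalized groups that did not overlap and a log2 change of 0.46 (SE 0.14; limma, adjusted p = 0.420). Evl, of the Ena/VASP family that feeds profilin-bound actin to growing ends, had a log2 change of 0.45 (limma, adjusted p = 0.598), and Arpc3, another Arp2/3 subunit, one of 0.31 (limma, adjusted p = 0.618).

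Of 7 tested rows of capping and pointed-end proteins 3 were higher, with a median of -0.03. Lmod2, a leiomodin of striated muscle filament pointed ends, had intensities of 2444, 4714 and 3645 in wildtype and 5811, 3643 and 5215 in Coco/KO muscle, and its normalized arrays did not overlap. Its log2 change was 0.45 (SE 0.17; limma, adjusted p = 0.523). The tropomodulins Tmod3 and Tmod4, which cap pointed ends, had log2 changes of -0.11 and -0.07 (limma, adjusted p = 0.949 and 0.961). Of the list for monomer-sensing transcription, 2 of 5 rows were tested. Srf had a log2 change of 0.01 and Abra, an actin-binding activator of that route in striated muscle, one of -0.40 (SE 0.23; limma, adjusted p = 0.716).

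**Figure D3:**
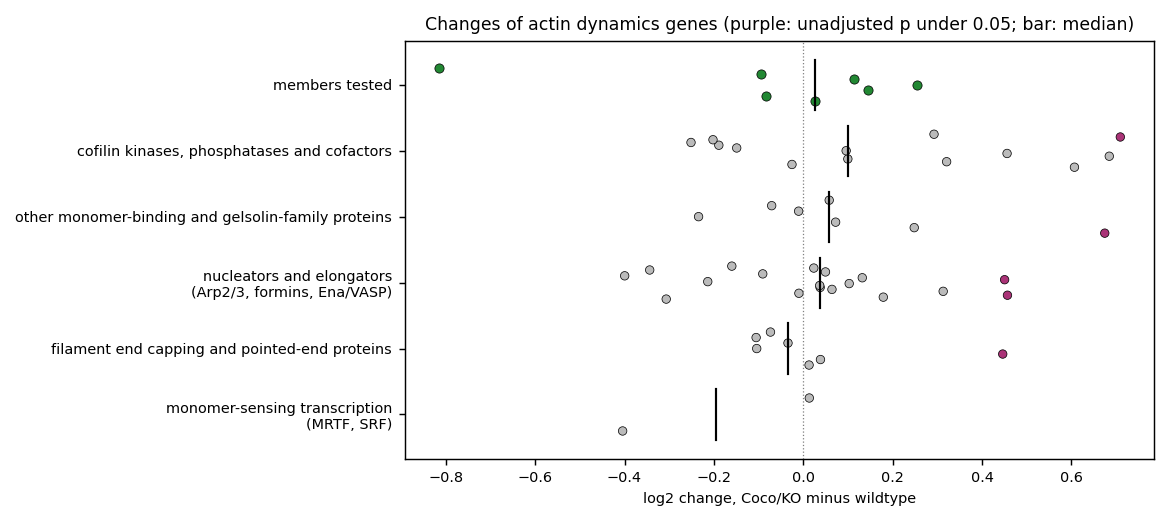
Log2 change, Coco/KO minus wildtype (horizontal axis), of each tested row in the 5 lists of actin dynamics genes and of the 7 tested genes of monomer binding and turnover (green). Purple points have an unadjusted p under 0.05, grey ones do not, and black bars are medians. The medians lie between -0.20 and 0.10, and the 5 purple points, Tesk1, Capg, Arpc1b, Evl and Lmod2, are all above 0.

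Pfn1, Cap1 and Tmsb10 are also made by leukocytes, and leukocyte markers differed between the arrays. In bulk muscle, fewer cells of a type and less RNA per cell cannot be told apart. The summed intensity of 19 macrophage and leukocyte rows was 3680, 4580 and 4882 in wildtype and 5582, 5094 and 16682 in Coco/KO muscle. Of the 16 rows tested 15 were higher and 1 lower, with a median log2 change of 0.68. Of these 16, 7 had an unadjusted p under 0.05, where 8.19% of all tested rows did, and none passed over all rows (limma). Cd68 and Cd74 were detected on all arrays and Ptprc on none. Coco/KO array 3 had the highest marker sum and the highest intensity of Pfn1, Cap1, Tmsb10 and Capg, and was also the brightest array over all rows (mean intensity 470.2). Dstn (445.1) and Pfn2 (5606) were also highest on that array, while Cfl1, Cfl2, Cap2, Tmsb4x and Gsn were each highest on a wildtype array. On the normalized log2 scale Pfn1 was highest on Coco/KO array 2 (10.30, against 10.25 on array 3). That array was the dimmest, and its marker sum, which is not normalized, was the lowest of its genotype. As a share of the array's whole signal the marker sum was 0.040%, 0.045% and 0.10% on Coco/KO arrays 1 to 3. The wildtype shares were 0.032%, 0.029% and 0.034%. The log2 change of Pfn1 was 0.18 without Coco/KO array 3 and 0.16 without Coco/KO array 2 (limma, adjusted p = 0.831 and 0.922). The part of leukocyte RNA in these values was not tested.

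Markers of other tissue components were read in the same way. Of 4 tested smooth muscle and pericyte rows all were lower in Coco/KO muscle, with a median log2 change of -0.44 and summed intensities of 5780 to 9013 in wildtype and 3981 to 7056 in Coco/KO muscle. Of 9 tested fibroblast and tendon rows 5 were higher and 4 lower (median 0.15), with sums of 16688 to 23891 and 13143 to 21531. Of the defining smooth muscle genes Myh11 was detected on 2 arrays and Cnn1 on 1, and of those of fibroblasts Col1a2 was detected on 6 and Col1a1 on 0. On Coco/KO array 1, where Gsn was at background, the fibroblast sum (21041) was within the wildtype range and the smooth muscle sum (4355) was below it. Adipocyte rows had the largest median log2 change of the 8 marker lists, -0.78 with 5 of 6 tested rows lower, and sums of 11733 to 29648 in wildtype and 7060 to 10946 in Coco/KO muscle. Their lowest sum, 7060, was also on Coco/KO array 1, and the defining genes Adipoq and Cfd were detected on all 6 arrays. Their part in the Gsn values was not tested.

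**Figure D4:**
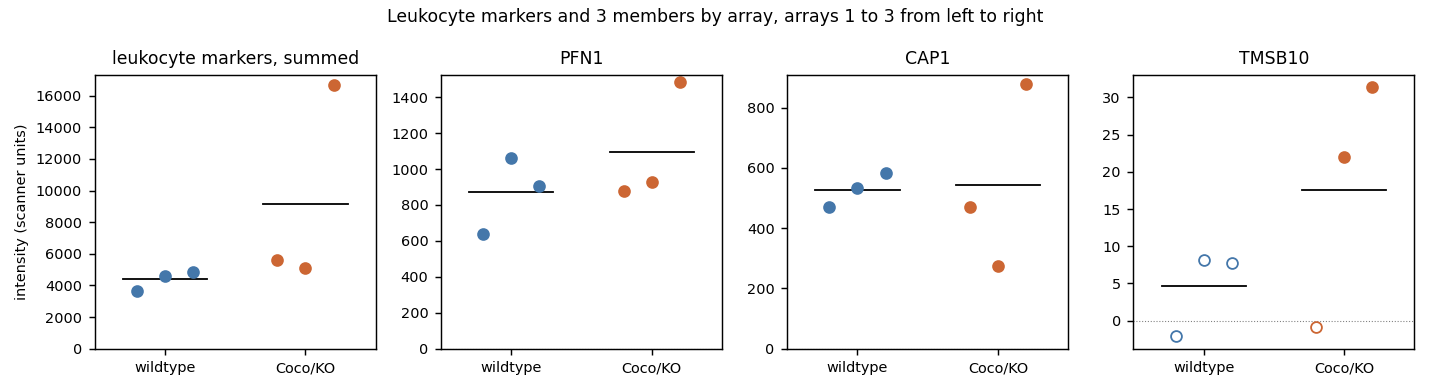
Summed intensity of 19 leukocyte marker rows and intensity of Pfn1, Cap1 and Tmsb10 (vertical axes, scanner units) on each array. Wildtype is blue, Coco/KO is orange, open points were not detected, and black lines are group means. Coco/KO array 3, the brightest array over all rows, is the highest point in all 4 panels. It was also the highest array for Dstn and Pfn2.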

How the data were processed

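Total RNA of whole soleus was amplified with biotin label and hybridised to 6 arrays of 1 beadchip, per the labels' protocols. The intensity values were exported by the authors from BeadStudio 3.2.6 with normalization set to none, per the file headers, and values below 0 show that background had been subtracted. Per the file headers, the same export gives the bead SD on the scale of the signal, the number of beads as coverage of a row, and a detection score. That score is a fraction computed by BeadStudio, 1 minus the detection p-value as the values show, per the file headers. The authors also deposited a table of processed log2 values, whose probes are not paired with genes here. BeadStudio and limma are named in the submitters' processing notes.

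A shift of 42.7 and an offset of 16 were added, and the log2 values were quantile normalized. Rows detected (p under 0.05) on at least 3 arrays, 12611 in all, were fitted on genotype with limma 3.58.1 in R 4.3.3, with Benjamini-Hochberg adjustment over all of them. The median number of beads per row was 35 or 36 per array, and the number of arrays limits precision. The procedure was tested on simulated data.

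Members and lists were chosen with earlier results of these data known. Genes named beside the 10 were, per list, up to 3 tested rows of lowest p and any row past the threshold, the first 2 markers of lists described, and the 3 rows most like the member of lowest p. List genes were matched to rows by name or by a RefSeq synonym. The replicate numbers name different mice, and same-numbered arrays did not deviate together (correlations -0.045, -0.29 and 0.091), so no block was fitted in the main comparison.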

Additional observations from a re-analysis of the deposited data

How the results depend on the processing

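None of the 10 genes and none of the 47 tested rows in the actin dynamics lists was called in the 17 alternative settings. The number of rows called over the whole array was 18, and became 5 with median scaling, 9 with an offset of 50, 2 with modelled background, 9 when detection on all 6 arrays was asked, 11 with the position on the chip in the model, 3 of 46632 probes in the authors' processed value table, and 5 to 29 with 1 array left out. The causes were not tested. Cfl1 turned to -0.030 with median scaling and to -0.0088 with cyclic loess. With 1 array left out the log2 changes ranged from -0.079 to 0.13 for Cfl1, -0.20 to 0.056 for Cfl2, -0.020 to 0.34 for Dstn, -0.012 to 0.26 for Pfn2 and -0.32 to 0.079 for Cap1, so none of these 5 has a settled sign. Pfn1 and Gsn kept their sign in every setting that gave a value. The pair differences ranged from -0.13 to 0.26 (Cfl1 minus Cfl2), -0.42 to 0.025 (Cfl1 minus Dstn) and -0.10 to 0.39 (Pfn1 minus Pfn2) with 1 array left out, and array weights and chip position were not run for them. With the replicate number as a block 13 rows were called and the pair differences kept their values, 0.11, -0.12 and 0.14; it changed no call among the 10 genes. Each gene had 1 row, so averaging rows gave no alternative. Dim rows are limited by signal near background.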

Other observations

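The 6 rows that were at or below 0 on Coco/KO array 1 and over 100 on each of the other 5 arrays were looked up after their values were seen. Besides Gsn, 1 has an established gene symbol, Inpp4b, a lipid phosphatase, at -10.6 on that array and between 114.9 and 343.6 on the others. The other 4 have provisional or clone names, with values from -4.9 to -0.5 on that array and of at least 161.2 elsewhere. No row had this pattern on any of the other 5 arrays. None of the 5 rows tested was called between the genotypes (limma, adjusted p from 0.744 to 0.872).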
